A study of Homo sapiens with 6 samples.

Results

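The genes described here are the core of the NRF2 and glutathione defence against oxidants: NFE2L2, KEAP1, NQO1, HMOX1, GCLC, GCLM, SLC7A11, TXNRD1, SRXN1 and GPX2. They were taken by gene symbol, and all 10 were found among the 41768 named genes of the table. Their RNA was measured by poly(A)-selected RNA sequencing in cells of 2 human pancreatic ductal adenocarcinoma (PDAC) lines, the one called 90 in the labels and the established line PANC-1. Each line had 1 library labelled NC and 2 libraries labelled with an siRNA against ALDOA, the glycolytic enzyme aldolase A, here called siALDOA 1 and siALDOA 2. The 4 groups were thus NC of 90 (1 library), siALDOA of 90 (2 libraries), NC of PANC-1 (1 library) and siALDOA of PANC-1 (2 libraries). The sources used here do not say what 90 and NC stand for, when cells were harvested, or whether siALDOA 1 and 2 are different siRNAs. They also do not say that libraries came from separate cultures, so the p-values reflect how far these libraries spread, and that spread may be technical.

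NFE2L2 encodes NRF2, a transcription factor that drives genes for antioxidant and detoxifying enzymes. KEAP1 binds NRF2 in the cytoplasm and hands it to a ubiquitin ligase for degradation, and oxidants or electrophiles modify KEAP1 so that NRF2 escapes, enters the nucleus and binds antioxidant response elements together with small MAF proteins. The amount of NRF2 protein is therefore set largely after transcription, and pancreatic cancer cells are known for a raised NRF2 programme.

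ALDOA, the targeted gene, stood at 726 FPKM in NC of 90 and at 262 and 318 in its siALDOA libraries, and at 906 FPKM in NC of PANC-1 against 501 and 462. Levels are in FPKM, fragments per kilobase and per 1e6 fragments (1 M), so they can be compared between genes. Depth estimated from the steps of low values was 17.7 to 21.8 M fragments per library. Of the 6 epithelial markers, KRT8, KRT18 and KRT19 were at 652 FPKM or more in each library. The other 3 were lower in PANC-1: KRT7 at 6.24 to 11.5 FPKM against 905 to 1350 in 90, EPCAM at 7.51 to 17.5 against 88.6 to 154, and CDH1 at 1.18 to 2.05 against 38.0 to 44.5. Summed markers of leukocytes did not pass 0.816 FPKM in any library, with all 6 under 1. Fibroblast markers summed to 5.82 to 8.44 FPKM in 90 and to 11.5 to 15.8 in PANC-1, with 5 of 7 under 1 throughout. Markers in this sum went both ways. COL1A1 was higher in PANC-1, at 9.96 to 13.7 FPKM against 1.20 to 1.68 in 90. ACTA2 was lower in PANC-1, at 1.05 to 1.43 FPKM against 4.51 to 6.66 in 90. Endothelial markers summed to 3.66 to 3.83 FPKM in 90 and to 0.027 to 0.051 in PANC-1, with 3 of 4 under 1 throughout. CDH5 stood at 3.24 FPKM in NC of 90 and at 0 in each library of PANC-1. In bulk RNA, fewer expressing cells and less RNA per cell cannot be told apart.

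The promoter sequences show where the letters of the antioxidant response element lie in these genes. The motif TGACNNNGC was searched on both strands (the other strand reads GCNNNGTCA) from 250 bases before to 50 bases after each transcription start of the RefSeq promoter table (GRCh38.p14). This table held 8 of the 10 genes in 11 windows. HMOX1 and SLC7A11 were absent from it and were not searched. A match was found in 5 windows of 4 genes (GCLM, GPX2, KEAP1 and TXNRD1), against 13.3% of all 35116 windows. The genes were chosen as NRF2 pathway genes, and TXNRD1 had matches in separate windows. The share of windows with a match is therefore no test of the motif. Below, 29 bases around matches are printed on the strand of the gene, 5′ to 3′, with the match in capitals. They are shown because GPX2, the gene that differed most between the lines, carries these letters as GCLM and TXNRD1 do, which did not pass the test. NQO1, which passed the test, was searched and had no match, and neither had NFE2L2, GCLC and SRXN1. Whether matches go with differences between the lines was not tested. One further match in TXNRD1 lies across its start and is not printed.
GCLM, chr1:93909446-93909474, minus strand: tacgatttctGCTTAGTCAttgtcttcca
GPX2, chr14:64942849-64942877, minus strand: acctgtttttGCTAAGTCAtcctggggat
KEAP1, chr19:10502807-10502835, minus strand: acttttattgTGACACGGCgggcgcccgg
KEAP1, chr19:10502784-10502812, minus strand: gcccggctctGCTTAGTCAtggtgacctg
TXNRD1, chr12:104215670-104215698, plus strand: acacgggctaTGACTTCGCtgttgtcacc
TXNRD1, chr12:104286920-104286948, plus strand: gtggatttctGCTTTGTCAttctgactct
Counted from the RefSeq start of its window, the match begins 34 bases before the start in GCLM and 122 bases before it in GPX2. These starts can lie inside the gene spans given below. The matches of GPX2 and KEAP1 and the TXNRD1 match at chr12:104286920-104286948 fall within those spans. In KEAP1 the matches begin 54 and 31 bases before the start, so both lie in 1 window. The GCLM match and the downstream KEAP1 match share the 9 letters GCTTAGTCA. A match describes letters in a window and does not show that NRF2 binds there. Sequence outside the windows was not searched, so a gene without a match may carry the letters elsewhere.

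PANC-1 and 90 differed in 3 of the 10 genes. NQO1 and GPX2 were lower in PANC-1 and HMOX1 was higher, with the other 7 not passing the test. Differences are PANC-1 minus 90 on the log2(FPKM + 1) scale from a limma fit over the 12592 genes whose mean reached 1 FPKM, with terms for line and siALDOA. Means and SDs of a line pool its 1 NC and 2 siALDOA libraries, which are not replicates of 1 condition. A call means a Benjamini-Hochberg adjusted p under 0.05. Over all genes tested, 38.8% were called, 20.4% higher and 18.4% lower in PANC-1, so 3 of 10 is near the background. The median difference of the 10 genes was 0.12 and that of all genes tested 0.13. All 10 passed the filter, GPX2 and SLC7A11 only through their level in 90.

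**Figure D1:**
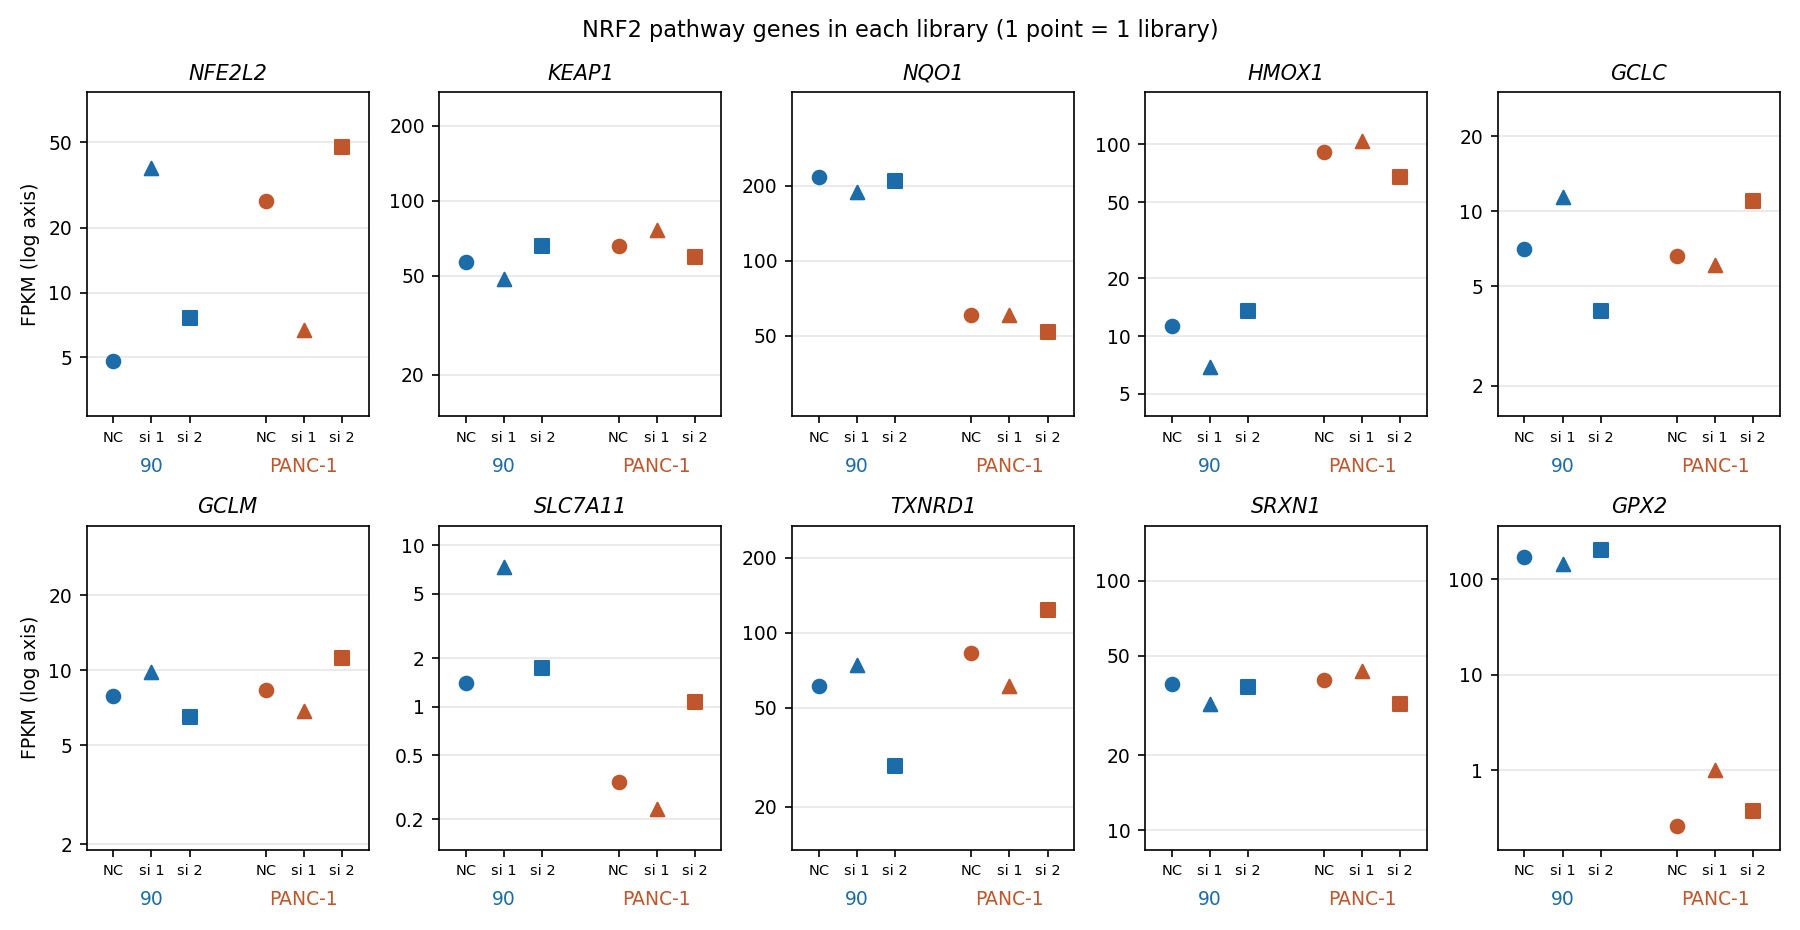
FPKM of the 10 genes in the 6 libraries (log scale), by line and library; 1 point is 1 library, blue for 90 and orange for PANC-1, and si stands for siALDOA. GPX2 lies between 144 and 202 FPKM in 90 and below 1 FPKM in PANC-1, whereas NFE2L2 spreads from 4.79 to 38.0 in 90 and from 6.73 to 47.4 in PANC-1.

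NFE2L2 (2:177227595-177392697, minus strand, GRCh38) varied more between libraries of a line than between the lines. Its levels in NC, siALDOA 1 and siALDOA 2 were 4.79, 38.0 and 7.64 FPKM in 90 and 26.7, 6.73 and 47.4 FPKM in PANC-1. The highest library was siALDOA 1 in 90 but siALDOA 2 in PANC-1, where siALDOA 1 was the lowest, and the lines overlapped. The highest value was 7.93 times the lowest in 90 and 7.04 times in PANC-1. The mean was 16.8 ± 18.4 FPKM (SD, n = 3) in 90 and 26.9 ± 20.3 FPKM (SD, n = 3) in PANC-1. The difference of 0.80 (SE 1.0, 95% interval -1.77 to 3.38, limma adjusted p = 0.598) did not exceed that spread. Without siALDOA 1 of both lines it was 2.37. That fit was chosen after seeing the data and had 1 library per group and 1 residual degree of freedom. Leaving out 1 library gave no call, with values from 0.077 (without NC of either line) to 1.77 (without siALDOA 1 of PANC-1). Variation of this kind was not particular to NFE2L2. Within lines its r with the main pattern over all genes tested was 0.988, and 37.5% of these genes had an absolute r of at least 0.9.

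KEAP1 (19:10486120-10503741, minus strand) was steadier. It stood at 56.5, 48.6 and 65.7 FPKM in NC, siALDOA 1 and siALDOA 2 of 90 and at 65.7, 76.4 and 59.5 FPKM in PANC-1, so the lines overlapped. The difference was 0.24 (SE 0.17, 95% interval -0.21 to 0.69, limma adjusted p = 0.354), an interval that leaves room for a change in either direction. A crossed replicate block, chosen after seeing the data, pairs siALDOA 1 of 90 with siALDOA 2 of PANC-1 and the reverse. The difference was called with this block (limma adjusted p = 0.0134) and with the trend of values on GC content removed (0.27, limma adjusted p = 0.0215). Without siALDOA 1 of both lines it was 0.037 (limma adjusted p = 0.909), scaled by the median ratio 0.10, and leaving out 1 library it ran from 0.11 to 0.36, none of them called.

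None of the 3 glutathione supply genes was called by limma. Of the 10 genes, 4 had an unadjusted p under 0.05, against 47.3% of all genes tested, and these were the 3 called genes and SLC7A11, the cystine transporter subunit that brings in the precursor of cysteine. SLC7A11 (4:138164097-138242349, minus strand) stood at 1.40, 7.39 and 1.74 FPKM in NC, siALDOA 1 and siALDOA 2 of 90, and at 0.342, 0.232 and 1.07 FPKM in PANC-1. Every library of 90 lay above every library of PANC-1, with siALDOA 1 of 90 far above the rest. The difference of -1.34 (SE 0.51, 95% interval -2.64 to -0.03) missed the threshold (limma adjusted p = 0.0994, unadjusted 0.0462). It passed under scaling by the median ratio (-1.40, limma adjusted p = 0.0488), quantile normalization (-1.36, 0.0260) and removal of the GC trend (-1.65, 0.00965). It also passed with the crossed block, chosen after seeing the data (limma adjusted p = 0.0157). It did not pass without siALDOA 1 of both lines (-0.62, limma adjusted p = 0.0647), with a pseudocount of 0.1 (-2.30, 0.0699), or leaving out any 1 of 5 libraries (-1.73 to -1.05). Without siALDOA 1 of 90 its mean fell under the filter. The values of SLC7A11 in PANC-1 lie near the floor, so its call with the GC trend removed is uncertain. Its partner SLC3A2, named here after its values were seen because it forms the transporter with SLC7A11, was called lower in PANC-1 (101 to 139 FPKM against 172 to 240).

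GCLC and GCLM encode the catalytic and modifier subunits of glutamate-cysteine ligase, the first step of glutathione synthesis. GCLC (6:53497341-53616970, minus strand) stood at 7.05, 11.4 and 3.97 FPKM in NC, siALDOA 1 and siALDOA 2 of 90 and at 6.62, 6.10 and 11 in PANC-1. GCLM (1:93885205-93909456, minus strand) stood at 7.85, 9.86 and 6.46 FPKM in 90 and at 8.29, 6.88 and 11.2 in PANC-1. In both genes the highest library was siALDOA 1 in 90 and siALDOA 2 in PANC-1, as for NFE2L2, and the lines overlapped. The difference was 0.13 (SE 0.42, 95% interval -0.96 to 1.21) for GCLC and 0.10 (SE 0.26, 95% interval -0.55 to 0.76) for GCLM, neither called by limma (adjusted p = 0.853 and 0.801). Removing the GC trend turned the sign of both (-0.039 and -0.17), as leaving out single libraries also did.

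NQO1 (16:69706996-69726951, minus strand), a quinone reductase and a widely used readout of NRF2 activity, had the highest mean of the 10 genes in 90. It stood at 217, 189 and 209 FPKM in NC, siALDOA 1 and siALDOA 2 of 90 and at 60.8, 60.6 and 51.9 FPKM in PANC-1. All 3 libraries of 90 lay above all 3 of PANC-1. The mean was 205 ± 14.8 FPKM (SD, n = 3) in 90 and 57.8 ± 5.06 FPKM (SD, n = 3) in PANC-1, a ratio of 3.55. The difference was -1.81 (SE 0.12, 95% interval -2.11 to -1.51, limma adjusted p = 4.76e-04). Within a line NQO1 stayed in these narrow ranges in the libraries where NFE2L2 varied by 7.93 and 7.04 times.

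HMOX1 (22:35380361-35394214, plus strand), which breaks heme down to biliverdin, iron and carbon monoxide, ran the other way. It stood at 11.3, 6.87 and 13.5 FPKM in NC, siALDOA 1 and siALDOA 2 of 90 and at 91.7, 104 and 67.7 FPKM in PANC-1, with no overlap. The mean was 10.6 ± 3.40 FPKM (SD, n = 3) in 90 and 87.8 ± 18.4 FPKM (SD, n = 3) in PANC-1, or 8.31 times as high. The difference was 2.96 (SE 0.30, 95% interval 2.20 to 3.73, limma adjusted p = 0.00165). HMOX1 thus moved from percentile 56.9 to percentile 92.5 of the mean level among genes tested, while NQO1 moved from 97.3 to 88.5.

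GPX2 (14:64939152-64942905, minus strand), a selenium-dependent glutathione peroxidase known from the gut epithelium, was the gene with the largest difference of the 10. It stood at 171, 144 and 202 FPKM in NC, siALDOA 1 and siALDOA 2 of 90 and at 0.262, 0.991 and 0.371 FPKM in PANC-1. The PANC-1 values stand for about 7, 28 and 9 fragments, the smallest whole numbers that fit their ratio. Their exact Poisson 95% intervals, for counting error only, were 0.105 to 0.540, 0.658 to 1.43 and 0.170 to 0.705 FPKM. The fragment numbers imply a gene length of 1299 bases, against 1134 in the longest GENCODE transcript, so they are approximate. The library with 28 fragments, siALDOA 1 of PANC-1, had 23356 genes above 0, against 19171 to 20371 in the other libraries. The mean in 90 was 318 times that in PANC-1. On the log2(FPKM + 1) scale, which shortens the change of low genes, the difference was -6.83 (SE 0.24, 95% interval -7.44 to -6.22, limma adjusted p = 1.79e-04). With a pseudocount of 0.1 it was -8.22. GPX2 ranked at percentile 96.7 of the mean level in 90 and at 5.23 in PANC-1.

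TXNRD1 and SRXN1 belong to the thioredoxin arm: TXNRD1 reduces thioredoxin with NADPH, and SRXN1 repairs over-oxidized peroxiredoxins. TXNRD1 (12:104215779-104350305, plus strand) stood at 61.0, 74.4 and 29.2 FPKM in NC, siALDOA 1 and siALDOA 2 of 90 and at 82.7, 61.1 and 124 FPKM in PANC-1. SRXN1 (20:646615-653370, minus strand) stood at 38.6, 32.1 and 37.5 FPKM in 90 and at 39.9, 43.3 and 32.1 FPKM in PANC-1. Both genes overlapped between the lines. The difference was 0.73 (SE 0.45, 95% interval -0.42 to 1.88) for TXNRD1 and 0.08 (SE 0.16, 95% interval -0.33 to 0.50) for SRXN1, with limma adjusted p-values of 0.271 and 0.745. The difference of TXNRD1 was 1.24 without siALDOA 1 of both lines, and it was called with the crossed block (limma adjusted p = 0.0101). Both settings were chosen after seeing the data. Leaving out 1 library gave no call, with values from 0.31 (without siALDOA 2 of 90) to 1.07 (without siALDOA 1 of 90), and 0.40 without siALDOA 2 of PANC-1. SRXN1 turned sign with scaling by the median ratio (-0.051).

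**Figure D2:**
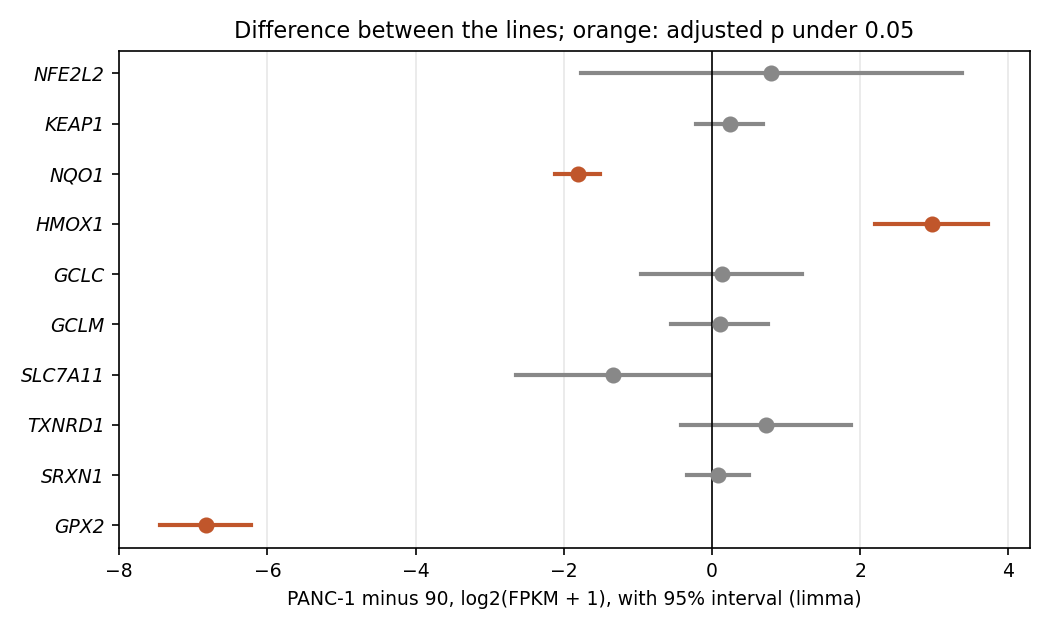
PANC-1 minus 90 on the log2(FPKM + 1) scale for the 10 genes, with 95% intervals from limma; orange marks called genes and grey the others. The called genes are NQO1, GPX2 and HMOX1. The unadjusted interval of SLC7A11, -2.64 to -0.03, also lies below 0, but the gene was not called after adjustment.

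The libraries of the lines did not overlap for 4 of the 10 genes (NQO1, SLC7A11 and GPX2 lower, HMOX1 higher in PANC-1), against 54.1% of all genes tested. The count of 3 called genes was 5 with the GC trend removed (KEAP1 and SLC7A11 added), where 52.1% of all genes were called. It was 5 without siALDOA 1 of both lines (NFE2L2 and TXNRD1 added), where 57.3% of all genes were called, and 6 with the crossed block (KEAP1, SLC7A11 and TXNRD1 added), where 60.3% were. The larger counts are thus near the background of the same fit and are no result about these genes. NQO1, HMOX1 and GPX2 were called in the deposited scale and in each of the 17 alternatives. Scaling by the median ratio moved the median of all genes from 0.13 to 0.02, and SLC7A11 was then the fourth gene called, with 29.4% of all genes called.

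Treatment with siALDOA gave no call in these genes. Over both lines limma called 0 of the 10 and 0 of the 12592 genes (0% of genes tested), with 43 genes and 0 of the 10 at an unadjusted p under 0.05. The largest differences of siALDOA minus NC were 0.63 for SLC7A11 (SE 0.54, 95% interval -0.76 to 2.01, the smallest unadjusted limma p of the 10 at 0.297) and 0.57 for NFE2L2 (SE 1.06, 95% interval -2.15 to 3.3). For NQO1 it was -0.12 (SE 0.13, 95% interval -0.44 to 0.20) and for GPX2 0.19 (SE 0.25, 95% interval -0.46 to 0.84). The median of the 10 was 0.03, and that of all genes 0.01. ALDOA itself was tested and not called, though it stood at 36.1% and 43.8% of NC in 90 and at 55.3% and 51.0% in PANC-1. The lack of calls therefore does not show that the 10 genes were unchanged. On simulated data with the same groups the fit called 5% of genes shifted by 1 log2 unit and 40% of genes shifted by 2. The simulated spread was independent between genes. In the real libraries 83.9% of the variance within lines followed 1 pattern shared by many genes, so these shares may not hold for them.

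Within 90, limma called 0 genes, with 33 at an unadjusted p under 0.05. PANC-1 alone also gave 0 limma calls, with 21 genes at that unadjusted level. The test of whether the lines responded differently gave 0 limma calls, with 24 genes at that level. Each of these is 0% of genes tested, and 0 of the 10 genes reached an unadjusted p under 0.05 in any of them. For NFE2L2 the effects differed by -2.18 (SE 2.11). These fits take the spread from the siALDOA libraries and assume it for the single NC library. NQO1 was 1 of the 10 genes (9.21% of all genes) whose 4 siALDOA values all fell to one side of the NC value of that line, and they were 0.867, 0.962, 0.997 and 0.855 times NC.

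In 3 of the 4 siALDOA libraries the direction of the 10 genes went largely with the GC content of their longest transcript. SLC7A11 (35.4% GC), GCLM (37.3%), GCLC (44.3%), TXNRD1 (44.8%) and NFE2L2 (45.6%) were above NC in siALDOA 1 of 90 and in siALDOA 2 of PANC-1. In siALDOA 1 of PANC-1 the same 5 genes were under NC. NQO1 (46.0%), GPX2 (53.1%), SRXN1 (53.6%), HMOX1 (58.1%) and KEAP1 (60.3%) were below NC in siALDOA 1 of 90. In siALDOA 2 of PANC-1 all of these 5 but GPX2 were below NC too, and in siALDOA 1 of PANC-1 all but NQO1 were above it. No such split was seen in siALDOA 2 of 90: NFE2L2 (0.58) and SLC7A11 (0.19) lay above NC and GCLC (-0.70), GCLM (-0.25) and TXNRD1 (-1.04) below it, and the genes of higher GC content also went both ways. Over all genes, the eighth of lowest GC content had a median change from NC of 1.40 in siALDOA 1 of 90 and of -1.02 in siALDOA 1 of PANC-1, on the log2(FPKM + 1) scale. The eighth of highest GC content had medians of -0.27 and 0.10. NFE2L2 changed by 2.75 and -1.84 in these libraries, while the eighth that holds it had medians of 0.26 and -0.11. With the GC trend removed, NFE2L2 stood at 2.62, 5.10 and 3.47 in NC, siALDOA 1 and siALDOA 2 of 90 and at 4.74, 3.04 and 5.32 in PANC-1, on the log2 scale, in the same order of libraries as before. Other genes changed order. GCLM stood at 3.80, 2.67 and 3.42 in 90 and at 2.90, 3.74 and 2.74 in PANC-1, so its highest library became its lowest in both lines. TXNRD1 in siALDOA 1 of 90 came to lie under NC (5.98 against 6.07). SLC7A11 in PANC-1 became highest in siALDOA 1 (0.05, 1.14 and 0.12). Before removal it stood at 0.34, 0.23 and 1.07 FPKM there, near the floor, so this new order is uncertain. The part of GC content in the differences between the lines was not tested beyond removing this trend.

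**Figure D3:**
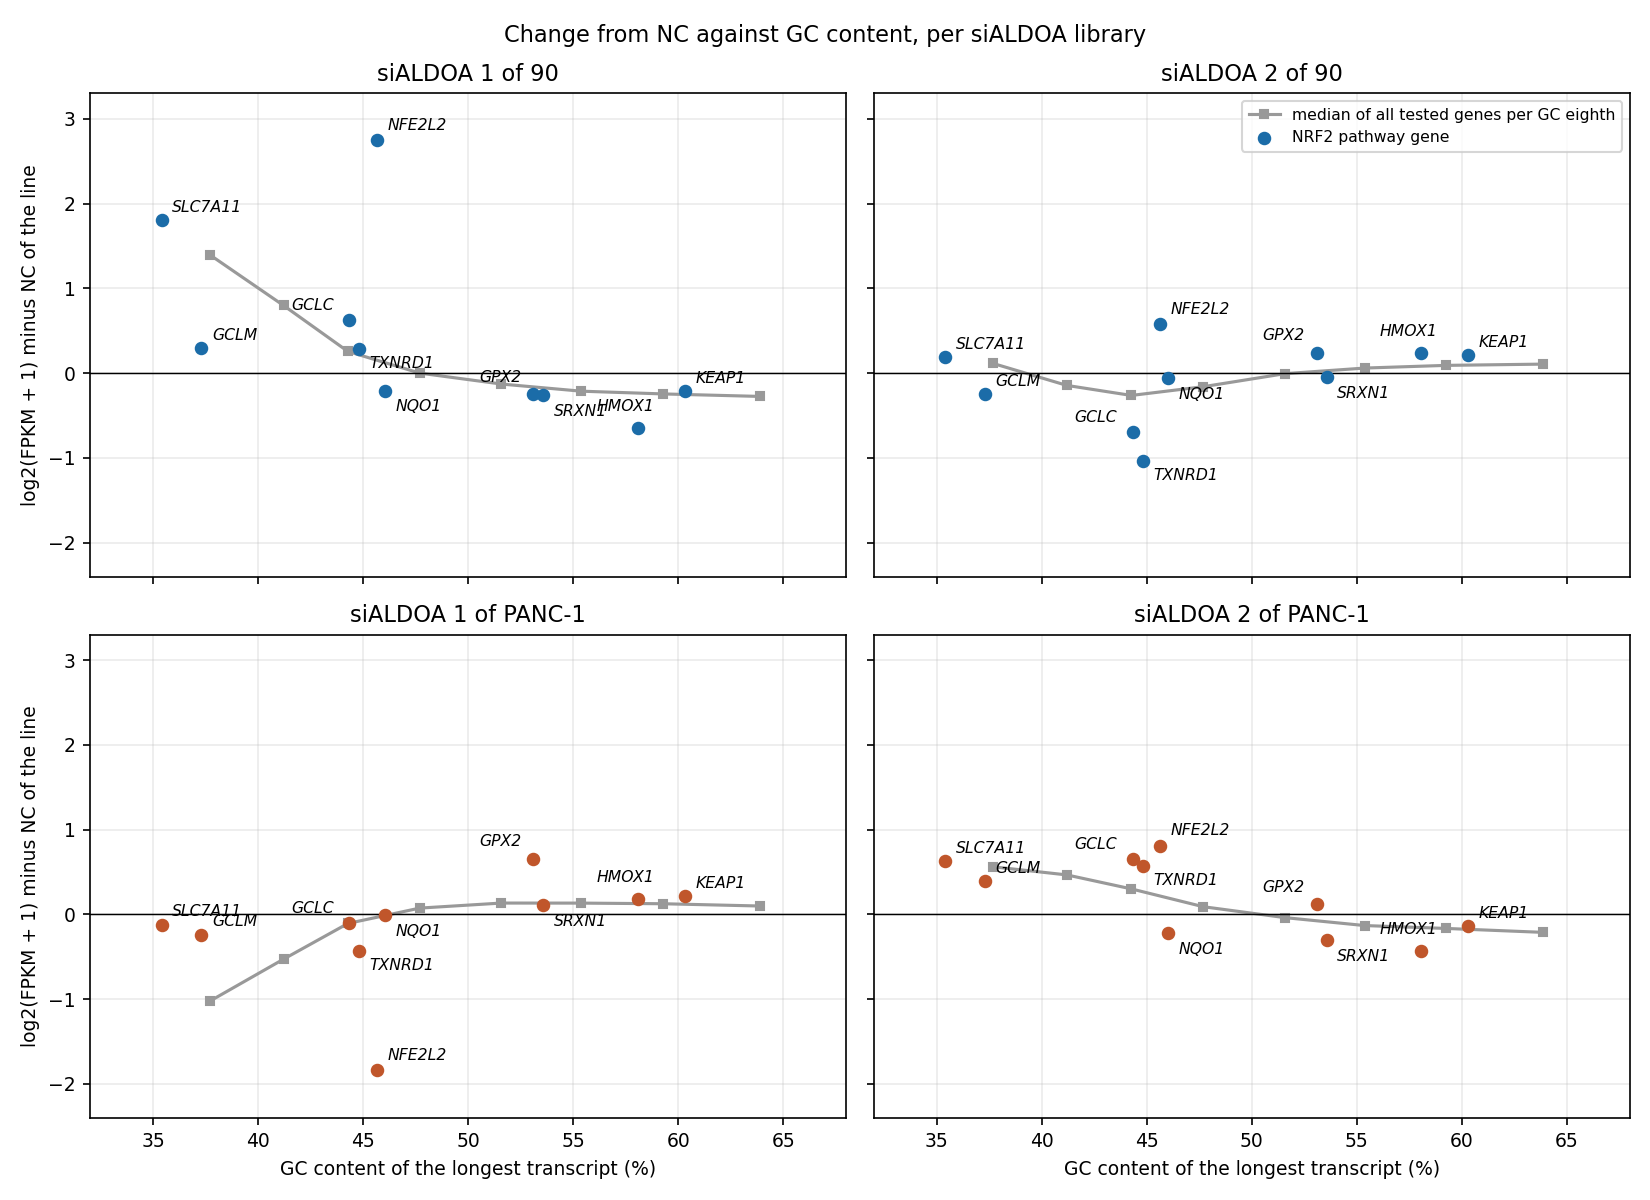
Change from the NC library of the line, on the log2(FPKM + 1) scale, against GC content of the longest transcript, for the 4 siALDOA libraries; round points are the 10 genes, and squares joined by a line are medians of 8 equal groups of tested genes. In siALDOA 1 of 90 the lowest eighth has a median of 1.40 and NFE2L2 lies at 2.75.

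The other genes of the pathway were also mixed in direction between the lines, and the counts below stand against 38.8% of all genes called, 20.4% higher and 18.4% lower in PANC-1. Of 14 partners of KEAP1 and NRF2, 3 were called higher and 2 lower in PANC-1 (median 0.55). The small MAF gene MAFK was higher by 2.11, at 37.1 to 51.0 FPKM in PANC-1, NFE2L1 was higher by 1.14 and MAFG by 0.56, while MAFF (-0.80) and the ligase subunit RBX1 (-0.50) were lower. Of 13 glutathione synthesis and recycling genes, 1 was higher (the exporter ABCC1, 1.26) and 4 lower (median 0.01). Among the lower were glutathione reductase GSR, at 29.5 to 33.0 FPKM in 90 and 11.6 to 13.1 in PANC-1 (-1.29), the degrading enzyme CHAC1 (-1.40) and the cysteine-forming enzyme CTH (-1.71).

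Among 24 tested of 25 peroxidases, thioredoxin genes and superoxide enzymes, 5 were called higher and 7 lower (median -0.07), against 20.4% and 18.4% of all genes. The thioredoxin inhibitor TXNIP fell from 73.1 to 85.2 FPKM in 90 to 2.21 to 3.17 in PANC-1 (-4.44), the peroxiredoxin PRDX2 from 241 to 345 FPKM to 29.2 to 38.3 (-3.08), and the secreted peroxidase GPX3 by 1.33. GLRX3 (1.25), GPX7 (1.06) and the mitochondrial dismutase SOD2 (0.99) were higher. Glutathione transferases, which join glutathione to foreign compounds, had 11 tested of 19, with 3 higher and 5 lower (median -0.52). MGST1 (-3.01), MGST2 (-1.91) and GSTP1 (-1.84, at 1385 to 1958 FPKM in 90 and 393 to 523 in PANC-1) were lower, and GSTM3 (0.99), GSTO1 (0.97) and GSTM4 (0.82) higher. Reads of near-identical GSTM genes can be shared, so those values are uncertain.

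Against 38.8% of all genes called, the 6 genes that supply NADPH had 1, the malic enzyme ME1 (1.15, higher), with a median of 0.14. Of 6 tested of 7 heme and iron genes, the biliverdin reductase BLVRA, which acts after HMOX1, was higher at 71.2 to 94.2 FPKM in PANC-1 and 31.9 to 38.5 in 90 (1.20), as was the ferrochelatase FECH (0.65), and the ferritin subunit FTH1 was lower (-1.78, median of the list -0.17). FTH1 has pseudogene copies that can share its reads. Among 13 tested of 18 other genes known as NRF2-bound or induced, 4 were higher and 5 lower (median -0.40): NQO2 (1.30), FOSL1 (0.88) and CBR3 (0.81) were higher, and TRIM16 (-2.16), TRIM16L (-3.69) and UGT1A6 (-1.88) lower. TRIM16 and TRIM16L are near-identical copies, and UGT1A6 shares exons with its neighbours, so their split is uncertain. Of 11 tested of 12 ferroptosis genes, AIFM2 (0.90) was higher and GCH1 (-1.34) lower (median 0.05). CTH, GCH1 and UGT1A6 passed the filter only through their level in 90. The median of all genes was 0.13, and the limma test of siALDOA called 0 genes in each of these lists, with 0 at an unadjusted p under 0.05.

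**Figure D4:**
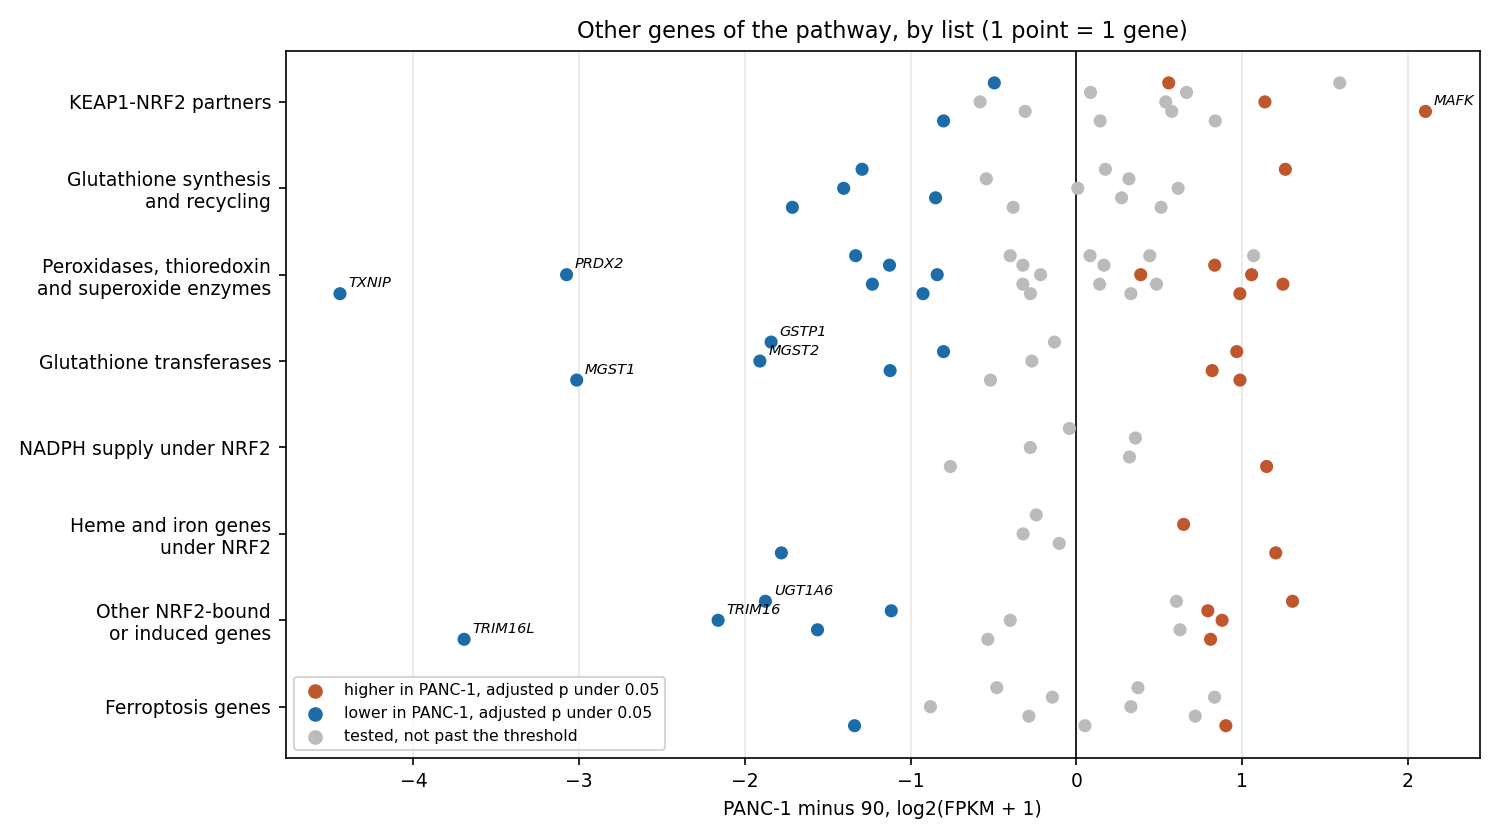
PANC-1 minus 90 on the log2(FPKM + 1) scale for the tested genes of each list; 1 point is 1 gene, orange is called higher, blue called lower and grey not called. Values run from TXNIP at -4.44 to MAFK at 2.11.

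The genes whose levels ran most like NFE2L2 over the 6 libraries were NEK2, TLK1 and CCAR1 (Pearson r of log2(FPKM + 1) of 0.9989, 0.9988 and 0.9981), of GC content 41.8%, 39.9% and 39.8%. For NQO1 they were SNN, BARX2 and SLC27A3 (0.9998, 0.9997 and 0.9997), each higher in 90. With 6 libraries that share lines and depth, many genes reach such values, 879 genes at r of at least 0.95 with NFE2L2 and 1808 with NQO1. None of these r carries a test.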

How the data were processed

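The authors deposited FPKM values per gene and library. The submitters' processing notes name HISAT2, featureCounts and hg38, with versions, strand use and gene lengths not given in the sources used here. Libraries were grouped by their labels. Values were analysed as log2(FPKM + 1) for genes whose mean reached 1 FPKM, with limma 3.58.1 in R 4.3.3, a prior variance with an intensity trend, and Benjamini-Hochberg adjustment over all 12592 genes. The fits of both lines together had 3 residual degrees of freedom and those within a line 2. Because FPKM values are not counts and the gene lengths used are unknown, no count test was run. Depth was estimated from the steps of low values, which were whole multiples for 96.1% to 97.1% of values (tolerance 0.03 of a step).

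The 10 genes and the pathway lists were chosen with earlier results of these data known. From each list, up to 3 called genes per direction with the largest difference were named, besides ALDOA and the 3 genes of highest r with NFE2L2 and with NQO1. SLC3A2 lies outside this rule. The fit was tested on simulated data with 200 of 12592 genes changed: for PANC-1 against 90 it called 73% of genes changed by 2 log2 units and 90% of those changed by 4, with 12 false calls. The real libraries had far more genes called between the lines and a spread shared between genes, so these figures may not hold for them. GC content and places came from GENCODE v29, and GC content was found for 90.6% of genes tested.

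Alternatives were another pseudocount, other filters, scaling by the median ratio, to TPM or by quantiles, removal of the GC trend, no intensity trend, a replicate block and each library left out. A crossed replicate block, and leaving out siALDOA 1 of both lines, were chosen after seeing the data.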

Additional observations from a re-analysis of the deposited data

How the results depend on the processing

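The 10 genes gave 5 calls between the lines with the GC trend removed (5942 of all 11405 genes called), 5 without siALDOA 1 of both lines (7169 of 12509) and 6 with the crossed replicate block (7594 of 12592), against 3 as deposited (4882 of 12592) and 3 to 4 otherwise, so the calls over all genes rose too. The cause was not tested. NQO1 ranged from -1.98 to -1.75, HMOX1 from 2.58 to 3.21 and GPX2 from -8.22 to -6.70. The siALDOA 1 minus siALDOA 2 differences of the lines ran in opposite directions (r = -0.86 over genes). A pattern shared by many genes can give this r, so it does not show whether same-numbered libraries pair. With the replicate block 3 of the 10 genes were called, and 3258 genes in all. Without NC of 90, 2359 genes were called, and without NC of PANC-1 2420.

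Signs turned between the lines for GCLC (-0.039 with the GC trend removed, -0.28 to 0.48 leaving out a library), GCLM (-0.018 by the median ratio, -0.17 with the GC trend removed, -0.080 to 0.28) and SRXN1 (-0.051 by the median ratio, -0.086 without siALDOA 1 of both lines, -0.042 to 0.20). For siALDOA over both lines they turned for GCLC (-0.022 without siALDOA 1 of both lines) and GCLM (-0.00097 by quantiles, -0.21 with the GC trend removed). Leaving out a library gave ranges of -0.51 to 1.66 for NFE2L2, -0.070 to 0.11 for KEAP1, -0.35 to 0.033 for HMOX1, -0.14 to 0.42 for GCLC, -0.088 to 0.18 for GCLM, -0.40 to 0.16 for TXNRD1 and -0.0036 to 0.39 for GPX2. None of these passed. SLC7A11 gave no value at a minimum mean of 5 FPKM or without siALDOA 1 of 90. The siALDOA comparisons called 0 of the 10 genes in every alternative run. Over all genes, 16 were called for siALDOA over both lines without siALDOA 1, and with no filter 38 within 90 and 49 within PANC-1.

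With 1 NC library per line, siALDOA and library effects cannot be told apart.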
